A study of Mus musculus with 32 samples.

Results

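Interferon-stimulated genes are the genes that cells switch on when they sense interferon, and 35 mouse genes of this class, out of 52636 genes in the count table, are described here across the 8 groups of a liver injury experiment. The 35 genes were chosen by their rise with thyroid hormone in uninjured liver in these same libraries. Their values in the uninjured groups with and without hormone are therefore a description. Earlier results of these data were also known when the genes were listed. Comparisons within injured liver are between groups outside the stated basis of the choice, but are not fully independent of it. The test behind them still estimates the spread between mice from all 32 libraries, the uninjured ones included. All 35 were found in the count table and all 35 passed the filter on low counts.

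Liver RNA of 32 mice was sequenced after selection of polyadenylated RNA, with 4 mice in each group. Mice of every group, the controls too, ate PTU/LID chow, which stops the thyroid from making its hormones. KO mice lack thyroid hormone receptor beta (gene Thrb) and are compared with WT mice. The T3 groups drank water with 1 µg/ml of this active form of the hormone in the final week of a 4-week course, and the PBS groups, which the labels name hypothyroid, had none. The CCl4 groups got 9 injections of 0.4 µl/g of this solvent, which hepatocytes turn into a damaging radical, and their controls got olive oil. The 8 groups are KO T3 CCl4, KO PBS CCl4, WT T3 CCl4, WT PBS CCl4, KO T3 oil, KO PBS oil, WT T3 oil and WT PBS oil. Liver was taken 24 hours after the last injection, and strain, age and sex are not stated in the labels used here. The labels name no cell type to which the knockout would be limited.

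Type I and type III interferons bind receptors that activate the kinases Jak1 and Tyk2, and signalling runs through a complex with Stat2 and Irf9 that binds a repeated GAAA element, the interferon-stimulated response element, in front of its target genes. Interferon gamma uses another receptor and acts through the TTCNNNGAA element. The targets include sensors of foreign RNA and DNA, enzymes that degrade viral RNA, GTPases that block virus particles, and the ubiquitin-like protein Isg15. In liver, hepatocytes, Kupffer cells (the resident macrophages) and infiltrating leukocytes can all express them.

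RefSeq promoters were on hand for 26 of the 35 genes, as 30 promoters of the build GRCm38.p6. The motif made of GAAA, any 2 bases and GAAA again, searched on both strands in the 250 bases before the start, was found in 12 of these 30 promoters, which is 40%, against 978 of all 32851 RefSeq promoters, which is 2.98%. The motif TTCNNNGAA was found in 5 of the 30, which is 16.7%, against 2306 of all promoters, which is 7.02%. A promoter with both motifs counts under each, and several matches of 1 motif count once per promoter. No match to the repeated GAAA motif was found among the promoters on hand for Zbp1, Mx2 or Ifi44, which comparisons below name. Stretches of 90 bases are shown for some of the genes with a match. They are in lower case, with every base of a match to the repeated GAAA motif, or to its reverse complement, in capitals.
Isg15, chr4:156200849-156200938, - strand: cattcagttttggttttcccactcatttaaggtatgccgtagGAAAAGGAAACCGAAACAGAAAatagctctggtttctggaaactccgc
Ifit1, chr19:34640769-34640858, + strand: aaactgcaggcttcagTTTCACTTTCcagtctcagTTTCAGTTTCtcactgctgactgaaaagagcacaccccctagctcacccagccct
Ifit3, chr19:34583359-34583448, + strand: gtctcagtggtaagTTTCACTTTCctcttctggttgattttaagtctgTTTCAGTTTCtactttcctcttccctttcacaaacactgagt
Ifit3b, chr19:34607755-34607844, + strand: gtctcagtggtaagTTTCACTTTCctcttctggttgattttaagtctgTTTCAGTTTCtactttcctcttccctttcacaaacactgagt
Gbp3, chr3:142559954-142560043, + strand: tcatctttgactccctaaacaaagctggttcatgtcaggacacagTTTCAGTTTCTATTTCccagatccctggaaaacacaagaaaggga
Rsad2, chr12:26456513-26456602, - strand: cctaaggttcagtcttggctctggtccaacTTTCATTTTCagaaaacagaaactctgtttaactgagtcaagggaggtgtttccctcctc
Isg15 has 3 overlapping matches in a row, Gbp3 has 2 overlapping matches, and Ifit1 and Ifit3 each have 2 separate ones. The stretches of Ifit3 and Ifit3b are the same in 90 of 90 bases. A match is a run of letters and was not tested as a binding site.

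The genes also share position. Ifit2, Ifit3, Ifit3b and Ifit1 lie side by side on chromosome 19, Oas2, Oas3 and Oas1a on chromosome 5, Oasl1 and Oasl2 at another place on chromosome 5, Gbp3 and Gbp7 on chromosome 3, Mx1 and Mx2 on chromosome 16, and Rsad2 and Cmpk2 on chromosome 12. Copies of these genes can share reads. Of all stretches of 50 bases in its transcripts, Oas1a shares 57.6% with Oas1g or Oas1b, Ifit3 shares 51.2% with Ifit3b, and Ifit3b shares 45% with other genes, mostly Ifit3, so the counts of these 3 genes are uncertain. Gbp7, Herc6 and Rtp4 share 12.7%, 12.5% and 11.6%, mostly with unnamed loci.

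The libraries held 16985162 to 26118055 counts. Levels below are CPM, a gene's counts scaled to 1 common library total, after adjustment by TMM factors, which correct for a few abundant genes. Dio1, a classic T3 target in liver, lay at 77.3 to 135 CPM in KO mice on T3 and 3.95 to 20.02 in KO mice on PBS, and at 844 to 1185 CPM in WT mice on T3 and 0.295 to 1.00 in WT mice on PBS (8 libraries each). Thrb, the targeted gene, still gave counts in KO livers. It lay at 15.9 to 24.4 CPM in KO T3 CCl4 and 32.8 to 44.4 in WT T3 CCl4 livers, at 22.7 to 33.7 CPM in KO T3 oil and 43.2 to 60.6 in WT T3 oil livers, and at 30.7 to 42.6 CPM in KO PBS oil and 50.1 to 66.4 in WT PBS oil livers, with no overlap within these conditions. In PBS CCl4 the genotypes overlapped, at 15.9 to 23.1 CPM in KO and 10.7 to 33.1 in WT livers. Fold changes are log2 fold changes from edgeR's quasi-likelihood test with their standard error (SE), a gene is called at an adjusted p under 0.05 over all 15599 genes tested, and the 4 libraries of a group are listed as replicates 1 to 4, which have no order. Shares of all genes called were counted for this fit only, not for the alternative fits named below.

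The 35 genes were low in uninjured liver without hormone, highest in uninjured liver on T3, and in between in injured liver. As a summary per library, the median over the 35 genes of log2(CPM + 0.5) was taken relative to the WT PBS oil mean. In oil-injected mice this median was 1.93, 1.78, 2.14 and 1.87 in KO mice on T3 and 0.10, -0.06, 0.18 and 0.16 in KO mice on PBS. It was 2.25, 2.18, 2.19 and 2.54 in WT mice on T3 and 0.21, -0.12, 0.09 and -0.14 in WT mice on PBS. In CCl4-injected mice it was 1.25, 1.36, 1.38 and 1.25 in KO mice on T3 and 1.24, 0.86, 0.80 and 0.88 in KO mice on PBS, and 1.07, 1.29, 1.06 and 1.16 in WT mice on T3 and 1.32, 0.97, 1.59 and 0.52 in WT mice on PBS. With oil the T3 and PBS libraries stood far apart, which the choice of genes fixes; with CCl4 the 4 T3 libraries of WT mice lay inside the range of the WT PBS libraries, and the KO T3 libraries lay just above those of KO PBS.

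**Figure D1:**
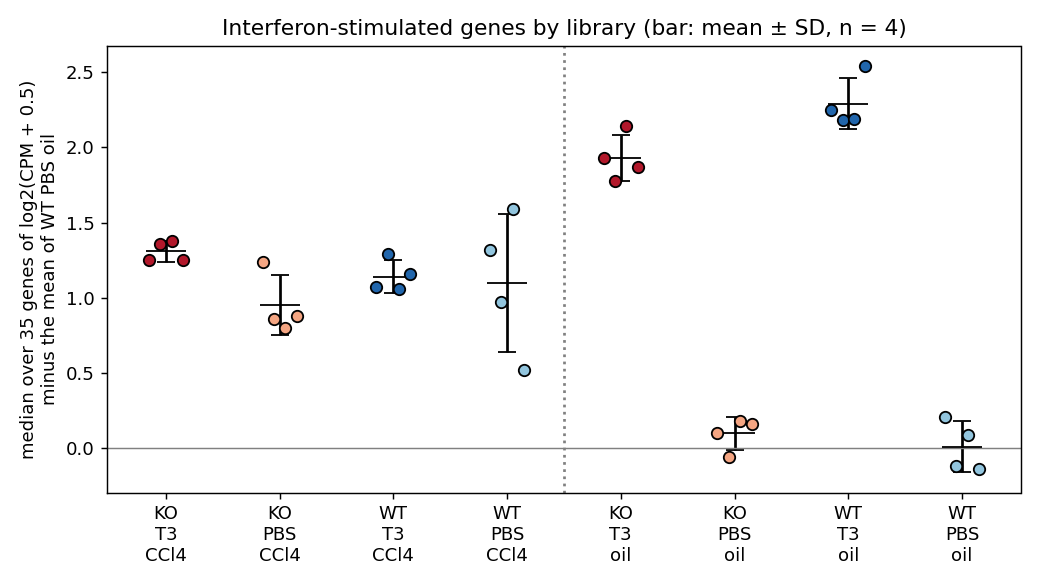
Median over the 35 interferon-stimulated genes of log2(CPM + 0.5) minus the WT PBS oil mean, on the vertical axis, for each library (points) of the 8 groups, with the mean and SD of 4 mice (bars). The CCl4 groups are left of the dotted line, with means of 1.31 (KO T3), 0.95 (KO PBS), 1.14 (WT T3) and 1.10 (WT PBS), and the WT PBS CCl4 libraries spread from 0.52 to 1.59.

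Gene by gene, the highest mean stood in T3 oil for 31 of 35 genes among the KO groups and for 33 of 35 among the WT groups, and the lowest in PBS oil for 33 of 35 in each genotype. The spread between mice was largest in WT PBS CCl4. There the SD of log2(CPM + 0.5) had a median of 0.63 over the genes, against 0.17 to 0.31 in the other groups, and 29 of the 35 genes had their largest SD in that group. The fit gives each gene 1 estimate of spread for all 8 groups. In comparisons with WT PBS CCl4, the SE and adjusted p can therefore understate the spread between mice. Per kilobase of exon, Bst2 (tetherin, which holds budding virus at the cell surface) had the highest level of the 35 in every group, from 393 CPM per kilobase in WT T3 oil to 76.3 in WT PBS oil. Gbp3, a guanylate-binding GTPase, came next in WT T3 oil at 83.0 CPM per kilobase. At the low end Oas3 had as few as 2 counts in a KO PBS oil library and 7 in a WT PBS oil library, so its fold changes against those groups are the least certain.

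**Figure D2:**
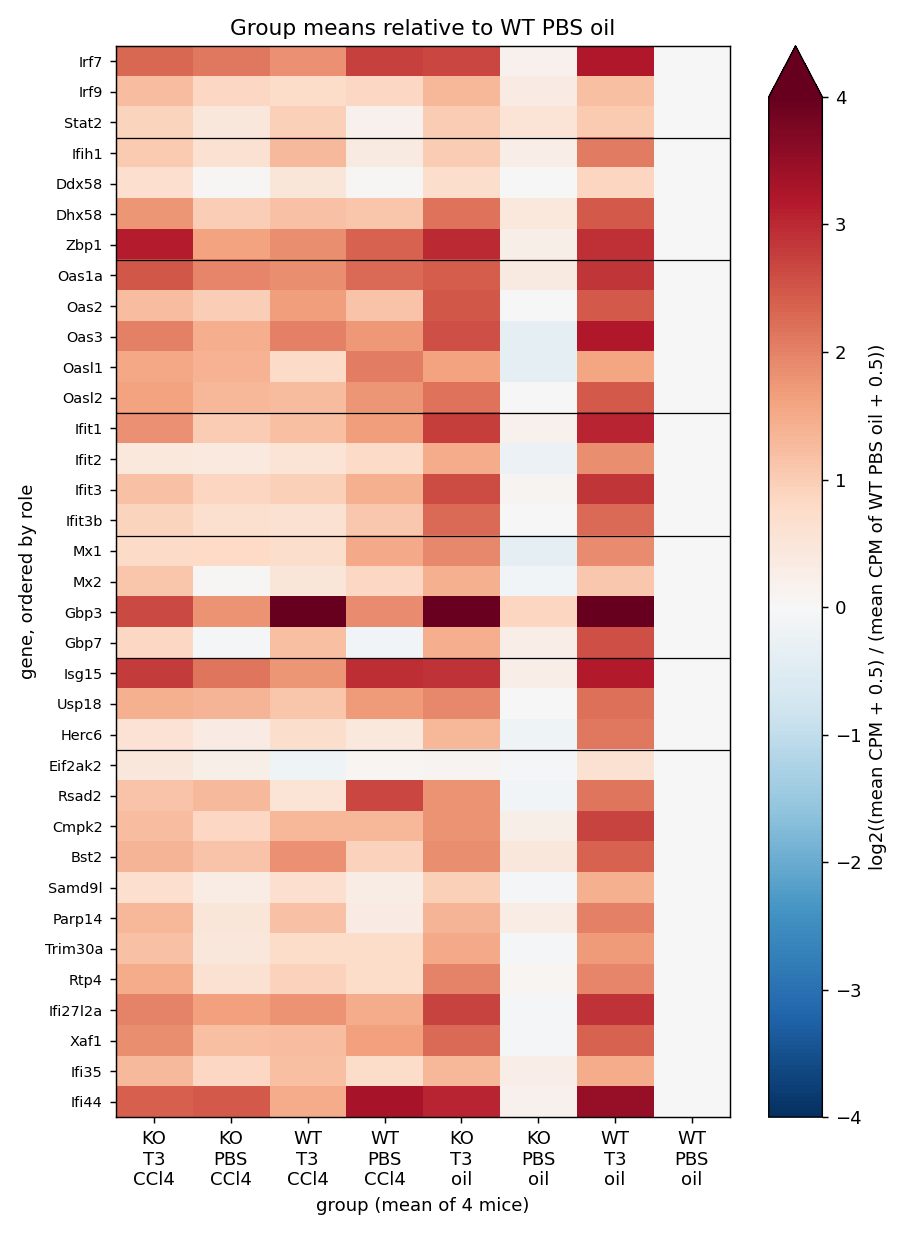
Colour shows the log2 ratio of each group's mean CPM (plus 0.5) to that of WT PBS oil for the 35 genes (rows, with lines between roles) in the 8 groups (columns). Both T3 oil columns are red for nearly all genes, the KO PBS oil column is near white, and the CCl4 columns lie between; Gbp3 in WT T3 oil lies beyond the end of the colour scale.

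The T3 difference in uninjured liver, which chose the genes and is given as a description only, had a median log2 fold change over the 35 genes of 2 in KO mice and 2.36 in WT mice, where all genes had medians of 0.01 and -0.02. In KO mice it ran from 0.15 for Eif2ak2 to 3.99 for Oas3, and in WT mice from 0.62 for Eif2ak2 to 6.49 for Gbp3. Eif2ak2 encodes PKR, the RNA-activated kinase that stops translation, and Oas3 makes the messenger that activates RNase L. Among the transcription factors, Irf7, which drives interferon genes, differed by 2.54 in KO mice and 3.25 in WT mice, Irf9 by 1.03 and 1.23, and Stat2 by 0.49 and 1.04. The 4 Ifit genes, whose proteins bind foreign RNA, lay between 1.91 and 2.74 in KO mice and between 2.02 and 3.19 in WT mice. Among the sensors, Ifih1 (MDA5) stood at 0.76 in KO and 2.12 in WT mice, Ddx58 (RIG-I) at 0.68 and 0.87, Dhx58 (LGP2) at 1.79 and 2.53, and Zbp1, which binds Z-form nucleic acid, at 2.89 and 3.09.

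Values in single livers show the size of this difference. Isg15 had 32.4, 30.9, 44.8 and 32.02 CPM in KO T3 oil and 4.87, 3.7, 4.62 and 7.63 in KO PBS oil livers, and 43.8, 40.9, 42.3 and 44.3 CPM in WT T3 oil and 6.02, 3.67, 3.91 and 3.45 in WT PBS oil livers. Ifit1 had 32.5, 25.8, 37.2 and 32.02 CPM in KO T3 oil and 4.76, 4.13, 4.398 and 5.85 in KO PBS oil livers, and 43.9, 32.4, 34.6 and 43.5 CPM in WT T3 oil and 5.74, 2.25, 5.47 and 3.45 in WT PBS oil livers. In both genes the T3 and PBS groups did not overlap in either genotype. Ifi27l2a, another interferon-induced gene, had 16.2, 19.5, 22.6 and 18.2 CPM in KO T3 oil and 3.11, 1.11, 3.08 and 2.37 in KO PBS oil livers, and 20.1, 16.4, 18.9 and 31.3 CPM in WT T3 oil and 2.7, 2.58, 2.36 and 2.41 in WT PBS oil livers. Usp18, which strips Isg15 from proteins and damps the interferon receptor, had 32.3, 29.1, 37.98 and 32.2 CPM in KO T3 oil and 7.88, 9.37, 9.59 and 5.97 in KO PBS oil livers, and 49.97, 38.6, 27.8 and 40.7 CPM in WT T3 oil and 6.86, 9.21, 9.97 and 6.85 in WT PBS oil livers. Again no PBS library reached a T3 library of its genotype.

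Gbp3 had the widest T3 difference of the 35 genes in WT livers. It had 61.4, 45.3, 56.7 and 51.9 CPM in KO T3 oil livers and 278, 237, 280.0 and 289.6 in WT T3 oil livers, and 5.57, 4.38, 3.69 and 9.58 in KO PBS oil livers and 3.15, 3.18, 3.704 and 1.94 in WT PBS oil livers. Both genotypes were higher on T3, WT livers much more so, and the groups on PBS lay closest together. Its T3 difference in oil was 3.22 in KO mice and 6.49 in WT mice, a gap of -3.28, which is given as a description because the T3 effects in oil chose the genes.

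Genotypes on T3 in uninjured liver were compared next, with libraries that took part in the choice of genes. The counts and adjusted p values of this paragraph are therefore no independent measure. In KO livers 6 of 35 genes were lower and 0 higher than in WT livers, that is 17.1%, where 9.21% of all genes were called lower and 16.3% in either direction. Gbp3 was lower in KO by 2.33 ± 0.35 (SE, adjusted p = 2.72e-05), Ifih1 was lower by 1.09 ± 0.24 (adjusted p = 0.00176) and Gbp7, another guanylate-binding protein, was lower by 1.12 ± 0.26 (adjusted p = 0.00279), each on the log2 scale. Cmpk2 (-0.92), a mitochondrial nucleotide kinase, Herc6 (-0.79), the Isg15 ligase of mice, and Parp14 (-0.65), an ADP-ribosyltransferase, were also lower. The calls of Herc6 and Parp14 were each lost in most fits with 1 of the 8 libraries left out. On PBS in oil, none of the 35 differed between KO and WT livers, where 0.538% of all genes were called; 4 genes had an unadjusted p under 0.05 and DESeq2 called 1.

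Injury alone raised most of the genes. After CCl4 on PBS, 24 of the 35 genes in KO livers and 27 of 35 in WT livers were called, all of them higher, where 17.8% of all genes in KO and 24.6% in WT were called higher, and 31.1% and 46.2% in either direction. The oil libraries on PBS are among those that chose the genes, so the genes were picked partly for being low there. These counts, and the adjusted p values of single genes for CCl4 on PBS below, are therefore no independent measure. The median log2 fold change was 0.80 in KO mice and 1.27 in WT mice, against 0.04 over all genes in each. In bulk liver RNA, a rise in RNA per cell and a rise in the number of cells that carry it cannot be told apart.

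With injury, 5 of 5 OAS genes and 4 of 4 IFIT genes were called higher in each genotype. The OAS calls held in each fit with 1 library left out, in both genotypes, and so did the IFIT calls in WT livers. In KO livers the 4 IFIT calls were all lost without KO PBS CCl4 replicate 1 (adjusted p = 0.0739 for Ifit1, 0.103 for Ifit2, 0.0918 for Ifit3 and 0.11 for Ifit3b), and they held in 7, 5, 5 and 4 of 8 fits. Of the OAS genes, Oas1a rose by 1.86 ± 0.32 (SE) in KO and 2.64 ± 0.33 in WT livers, and Oasl2 by 1.40 ± 0.24 and 1.87 ± 0.24. Oasl2 had 17.9, 13.2, 16.98 and 12.9 CPM in KO PBS CCl4 livers and 6.47, 3.76, 7.52 and 5.202 in KO PBS oil livers, and 25.4, 24.2, 24.4 and 9.98 CPM in WT PBS CCl4 livers and 5.91, 6.802, 4.54 and 5.805 in WT PBS oil livers. Irf7 had 136, 71.5, 34.5 and 52.4 CPM in KO PBS CCl4 livers and 23.7, 19.1, 14.2 and 17.9 in KO PBS oil livers, and 171, 60.03, 166 and 53.7 CPM in WT PBS CCl4 livers and 20.5, 20.7, 15.99 and 9.52 in WT PBS oil livers. All injured livers were above all uninjured ones for both genes. Isg15 rose by 1.99 ± 0.36 (adjusted p = 0.00026) in KO and 3.09 ± 0.37 (adjusted p = 7.04e-07) in WT livers. Ifi44, an interferon-induced protein of the cytoplasm, rose by 2.49 ± 0.46 (adjusted p = 0.000312) in KO and 3.57 ± 0.48 (adjusted p = 2.44e-06) in WT livers. Stat2 (-0.08 in KO and 0.16 in WT), Ddx58 (0.01 and 0.03), Ifih1 (0.37 and 0.38), Gbp7 (-0.36 and -0.12) and Eif2ak2 (0.29 and 0.09) were not called in either genotype.

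No gene of the 35 had a CCl4 effect on PBS that was called as different between KO and WT mice, where 0.0192% of all genes were called; 6 genes had an unadjusted p under 0.05 and DESeq2 called 0. Within injured PBS livers, 2 of 35 genes were lower in KO, Rsad2 by 1.39 ± 0.29 (adjusted p = 0.0107) and Mx2 by 0.84 ± 0.21 (adjusted p = 0.0331), where 1.04% of all genes were called lower and 2.25% in either direction. Rsad2 encodes viperin, which makes a chain-terminating nucleotide, and Mx2 is a dynamin-like GTPase. This count moved with single mice. Without WT PBS CCl4 replicate 4 it was 11, and it was 0 without WT PBS CCl4 replicate 1 or without KO PBS CCl4 replicate 4; Rsad2 then had an adjusted p of 0.0511 and 0.0678. It was 1 without KO PBS CCl4 replicate 2 or without WT PBS CCl4 replicate 2 or 3.

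With hormone treatment of injured liver, the called genes of the 35 were all higher in KO livers and went both ways in WT livers. The WT share called was close to that of all genes. The groups compared here hold none of the libraries in the stated basis of the choice of genes. Earlier results of these data were known at that choice, so the counts are not fully independent of it. The SEs and adjusted p values also use a spread estimated over all 32 libraries. In KO livers on CCl4, T3 raised 7 of 35 genes and lowered 0, where 1.77% of all genes were called higher and 2.54% in either direction, and 32 of the 35 fold changes were above 0 (median 0.42). In WT livers on CCl4, T3 raised 9 genes and lowered 6, 42.9% of the 35 beside 41.7% of all genes, of which 20% were higher and 21.7% lower (median -0.09, with 16 above 0). With scaling by total counts alone, which shifts the median of all genes by -0.35, the WT split was 4 higher and 17 lower. In a fit of only the compared groups 3 genes were called in KO and 7 in WT, while DESeq2 called 11 in KO. The KO count was 3 without KO T3 CCl4 replicate 2 or 4, and 4 without KO T3 CCl4 replicate 1 or 3 or KO PBS CCl4 replicate 2 or 4.

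In injured WT livers the genes that T3 lowered were Rsad2, Isg15, Ifi44, Oasl1, Mx1 and Irf7. Rsad2 had 10.7, 13.5, 10.8 and 11.2 CPM in WT T3 CCl4 livers and 73.7, 46.4, 71.6 and 19.1 in WT PBS CCl4 livers, a fold change of -2.19 ± 0.30 (adjusted p = 1.79e-06). Isg15 had 16.6, 18.8, 12.9 and 14.8 CPM in WT T3 CCl4 livers and 57.2, 19.4, 57.9 and 10.1 in WT PBS CCl4 livers (-1.20 ± 0.34, adjusted p = 0.00613). Ifi44 had 9.04, 8.26, 6.05 and 6.05 CPM in WT T3 CCl4 livers and 48.8, 10.3, 42.6 and 8.72 in WT PBS CCl4 livers (-1.91 ± 0.43, adjusted p = 0.000853). For Rsad2 all T3 livers lay below all PBS livers, while for Isg15 the PBS library of replicate 4 lay below every T3 library, and for Ifi44 that library lay inside their range. Oasl1, which in mouse represses translation of Irf7, fell by 1.28 ± 0.27 (adjusted p = 0.000476) and Mx1, a GTPase that blocks influenza virus, by 0.90 ± 0.29 (adjusted p = 0.0138). Mx1 lost its call without WT PBS CCl4 replicate 3 (adjusted p = 0.072). Irf7 had 56.3, 64.8, 52.6 and 68.7 CPM in WT T3 CCl4 livers and 171, 60.03, 166 and 53.7 in WT PBS CCl4 livers, and fell by 0.90 ± 0.33 (adjusted p = 0.0316). The Irf7 groups overlapped, and its call was kept in 3 of 8 fits with 1 library left out, with the highest adjusted p of 0.15 without WT PBS CCl4 replicate 1.

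Higher on T3 in injured WT livers were Gbp3 and Gbp7, Stat2, the sensors Ifih1 and Ddx58, Bst2, Parp14, Oas2 and Ifi35. Gbp3 had 51.5, 80.4, 52.99 and 88.6 CPM in WT T3 CCl4 livers and 15.1, 7.42, 18.9 and 8.52 in WT PBS CCl4 livers (2.45 ± 0.36, adjusted p = 4.26e-06). Stat2 had 113, 137, 116 and 135 CPM in WT T3 CCl4 livers and 75.2, 64.4, 86.6 and 63.6 in WT PBS CCl4 livers (0.79 ± 0.15, adjusted p = 9.89e-05). Bst2 had 209, 272, 213 and 280.0 CPM in WT T3 CCl4 livers and 178, 81.7, 161 and 98.9 in WT PBS CCl4 livers (0.91 ± 0.19, adjusted p = 0.000303). The groups did not overlap for any of these 3 genes. Gbp7 rose by 1.37 ± 0.26, Ifih1 by 0.93 ± 0.24 and Parp14 by 0.88 ± 0.22. Oas2 (0.57), Ddx58 (0.44) and Ifi35 (0.47) rose less; their calls were kept in 2, 3 and 7 of 8 fits with 1 library left out. None of the 4 Ifit genes was called, at -0.50 (Ifit1), -0.24 (Ifit2), -0.47 (Ifit3) and -0.56 (Ifit3b).

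In KO livers on CCl4, the genes higher on T3 were Zbp1, Mx2, Rtp4, Trim30a, Parp14, Gbp7 and Ddx58. Zbp1 had 41.6, 36.9, 33.1 and 52.5 CPM in KO T3 CCl4 livers and 23.2, 12.3, 8.38 and 10.8 in KO PBS CCl4 livers (1.58 ± 0.34, adjusted p = 0.0109). Mx2 had 13.04, 12.2, 11.2 and 13.7 CPM in KO T3 CCl4 livers and 6.196, 6.596, 4.21 and 5.56 in KO PBS CCl4 livers (1.15 ± 0.21, adjusted p = 0.00218). The T3 livers were all above the PBS livers for both genes. Rtp4, an interferon-induced receptor chaperone, rose by 0.90 ± 0.19 (adjusted p = 0.00807). The calls of these 3 genes held in 8 of 8 fits with 1 library left out, and those of the other 4 genes in 0 to 4. Ddx58, Parp14 and Gbp7 were also higher on T3 in injured WT livers. Isg15 had 31.3, 37.7, 30.2 and 32.1 CPM in KO T3 CCl4 livers and 33.7, 17.6, 15.5 and 15.6 in KO PBS CCl4 livers, with overlapping groups and no call (0.67 ± 0.34, adjusted p = 0.337). Rsad2 had 18.5, 15.8, 22.2 and 14.5 CPM in KO T3 CCl4 livers and 30.9, 20.9, 13.5 and 14.8 in KO PBS CCl4 livers, likewise overlapping (-0.17 ± 0.29, adjusted p = 0.838).

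**Figure D3:**
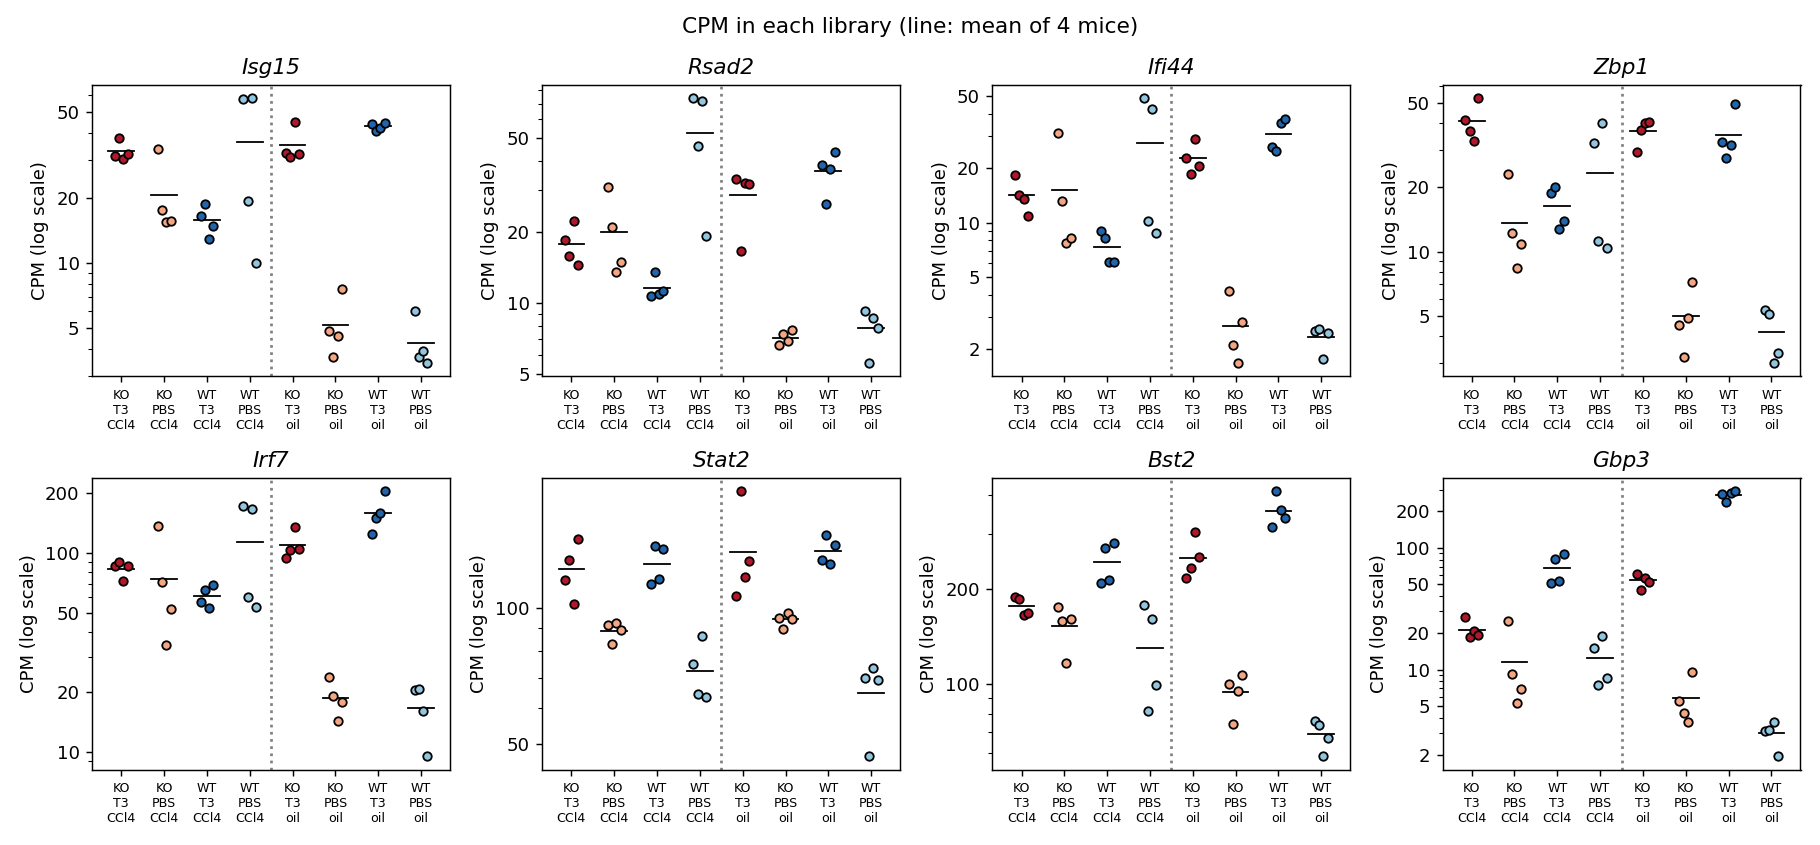
CPM on a log axis in each of 4 livers (points) and their mean (lines) for 8 of the genes in the 8 groups, CCl4 left of the dotted line. Rsad2, Isg15, Ifi44, Irf7 and Zbp1 spread widely in WT PBS CCl4, where for example Isg15 ran from 10.1 to 57.9, while Gbp3, Stat2 and Bst2 were higher in every WT T3 CCl4 liver than in any WT PBS CCl4 liver.

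The difference between the genotypes in the T3 effect on injured liver was tested directly as an interaction, KO effect minus WT effect. It was called for 11 of 35 genes, 31.4%, where 22.7% of all genes were called, 10.3% above and 12.4% below 0; 10 of the 11 were above 0 and Gbp3 was below 0 (median 0.67, against 0.05 over all genes). Zbp1 had the largest value (2.10 ± 0.48, adjusted p = 0.00225), followed by Rsad2 (2.02 ± 0.41, adjusted p = 0.000828), Isg15 (1.87 ± 0.48, adjusted p = 0.00561) and Ifi44 (1.82 ± 0.60, adjusted p = 0.0275). The smallest adjusted p was that of Mx2 (1.51 ± 0.29, adjusted p = 0.000535). Oasl1 (1.44), Ifit1 (1.32), Xaf1 (1.10), Trim30a (0.73) and Rtp4 (0.72) were the others above 0. The pattern behind these values differed from gene to gene. Zbp1 and Mx2 were raised by T3 in KO livers and not called in WT livers (-0.52 and -0.36). Rsad2, Isg15, Ifi44 and Oasl1 were not called in KO livers and were lowered in WT livers.

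The calls of Mx2, Rsad2, Zbp1, Xaf1, Isg15 and Oasl1 held in 16 of 16 fits with 1 library left out. Ifi44 kept its call in 9 of 16, with the highest adjusted p of 0.0858 without WT PBS CCl4 replicate 1. Ifit1 lost its call without WT PBS CCl4 replicate 3 (adjusted p = 0.0557), and Gbp3 lost its call without KO PBS CCl4 replicate 1 (adjusted p = 0.119). Trim30a and Rtp4 kept theirs in 6 and 3 of 16. The count of calls was 18 without WT PBS CCl4 replicate 4, the liver with the lowest median over the 35 genes in its group, and 17 with scaling by total counts alone, under which Gbp3 was no longer called and the median of all genes shifted by 0.25. A fit of only the compared groups, which takes the spread from those groups alone, called 6. The share of all genes called was not counted under these other fits, so it cannot be set beside these counts.

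**Figure D4:**
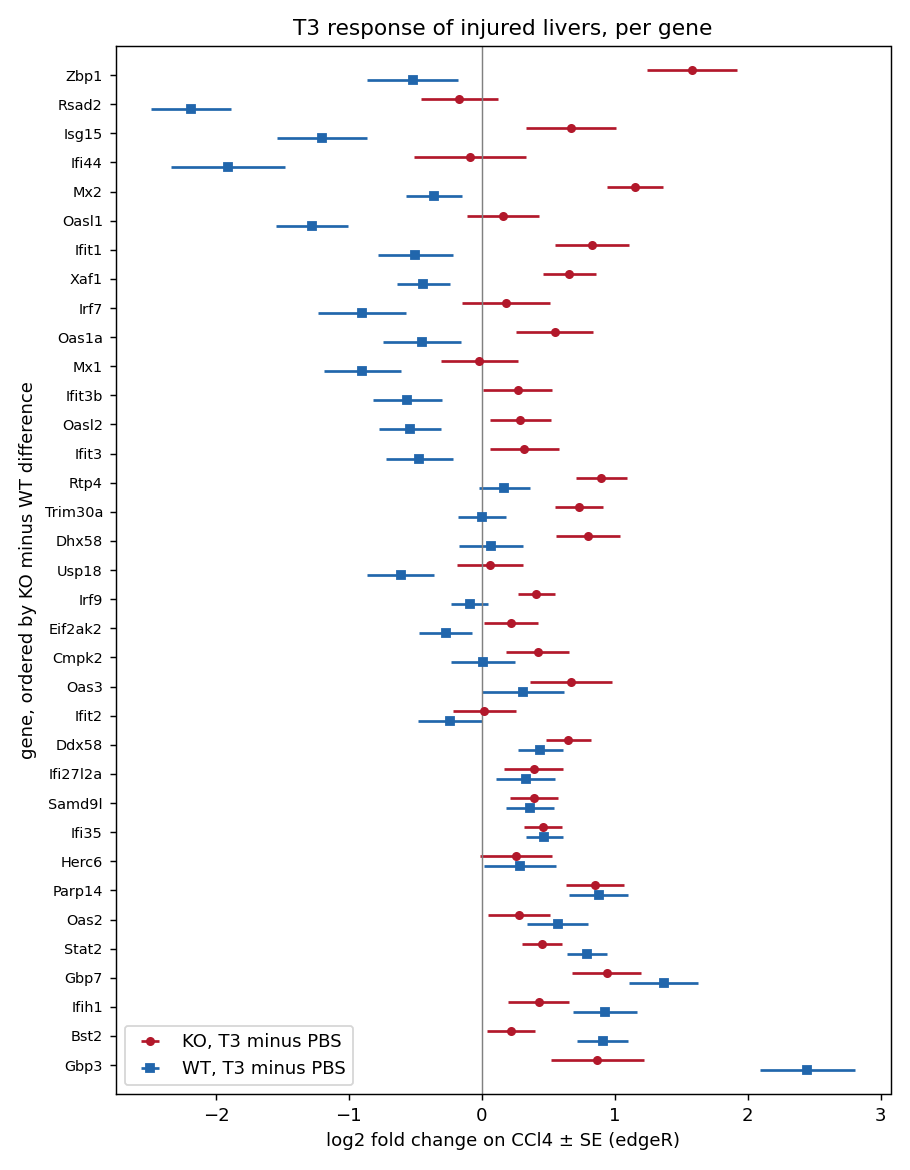
Log2 fold change of T3 over PBS on CCl4 with its SE (horizontal axis) for each of the 35 genes (vertical axis, ordered by the KO minus WT difference), KO as circles and WT as squares. The top of the plot, from Zbp1 to Oasl1, has KO values near or above 0 and WT values below 0, and at the bottom Gbp3 has 0.87 in KO and 2.45 in WT.

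Set side by side on T3 and CCl4, KO livers had 8 of 35 genes higher and 1 lower than WT livers, 25.7% of the genes, where 22.9% of all genes were called, 10.4% higher and 12.5% lower. Zbp1 had 41.6, 36.9, 33.1 and 52.5 CPM in KO T3 CCl4 livers and 18.9, 20.2, 12.8 and 13.8 in WT T3 CCl4 livers (1.32 ± 0.34, adjusted p = 0.00565). Irf9 had 58.5, 60.7, 59.5 and 58.1 CPM in KO T3 CCl4 livers and 41.8, 48.1, 39.2 and 37.3 in WT T3 CCl4 livers (0.51 ± 0.14, adjusted p = 0.0111). Neither gene overlapped between genotypes. Gbp3 was the gene that was lower, with 26.8, 18.6, 20.6 and 19.1 CPM in KO T3 CCl4 livers and 51.5, 80.4, 52.99 and 88.6 in WT T3 CCl4 livers (-1.68 ± 0.35, adjusted p = 0.000777). The calls of these 3 genes held in 8 of 8 fits with 1 library left out. Isg15 (1.06), Oasl1 (0.78), Mx2 (0.67), Eif2ak2 (0.64), Rtp4 (0.60) and Xaf1 (0.64), whose protein binds the apoptosis inhibitor XIAP, were also higher in KO but lost their calls in 1 or more of those fits. Without WT T3 CCl4 replicate 3 the count was 4, and in a fit of only the compared groups it was 18.

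On T3, injured livers were lower in these genes than uninjured ones. Of the 35 genes, 13 in KO and 26 in WT were called, all lower after CCl4, where 19.8% of all genes in KO and 1.74% in WT were called lower, and 39.6% and 3.4% in either direction. The T3 oil libraries were part of the choice of genes, so these counts and the adjusted p values of this paragraph too are no independent measure. The median fold change was -0.51 in KO and -1.11 in WT livers, against 0 and -0.01 over all genes. The 4 Ifit genes were lower in each genotype. Ifit3 had 12.9, 15.3, 17.1 and 14.2 CPM in KO T3 CCl4 livers and 37.5, 37.1, 52.5 and 38.1 in KO T3 oil livers (-1.48 ± 0.26, adjusted p = 8.32e-05), and 12.02, 13.2, 11.7 and 14.3 CPM in WT T3 CCl4 livers and 52.1, 47.03, 47.9 and 47.99 in WT T3 oil livers (-1.93 ± 0.26, adjusted p = 7.58e-05). No injured liver reached an uninjured one in either genotype. Isg15 and Irf7 were not called in KO livers (-0.09 and -0.39) and were lower in WT livers (-1.44 and -1.39). Their WT calls held in 7 and 5 of 8 fits with 1 library left out. The WT count was 18 to 24 in such fits, and 17 of the 26 WT calls held in each of them. The KO count was 7 without KO T3 CCl4 replicate 4, 8 without KO T3 oil replicate 3, 7 with scaling by total counts alone and 8 with no filter on low counts. Tested directly, that genotype difference was called for 1 of 35 genes, where 13.5% of all genes were called, with 6.2% of all genes above 0. It was Eif2ak2 (1.16 ± 0.29, adjusted p = 0.00971), which had 27.8, 26.01, 30.1 and 25.8 CPM in KO T3 CCl4 and 27, 16.3, 20.6 and 21.3 in KO T3 oil livers, and 17.5, 17.97, 18.2 and 16.6 CPM in WT T3 CCl4 and 34.3, 26.5, 30.04 and 31.5 in WT T3 oil livers. Isg15 had 1.35 ± 0.48 (adjusted p = 0.0573) in the same test. This count was 2 without WT T3 oil replicate 2, 12 with scaling by total counts alone, 17 in a fit of only the compared groups and 3 with DESeq2.

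Oas2, Usp18, Ifi27l2a, Xaf1 and Mx1 complete the values of the main effector genes in injured liver. Oas2 had 7.49, 10.9, 9.402 and 8.91 CPM in KO T3 CCl4 and 7.31, 7.27, 7.46 and 8.18 in KO PBS CCl4 livers, and 10.8, 13.1, 12.6 and 13.9 CPM in WT T3 CCl4 and 7.17, 11.6, 8.26 and 6.83 in WT PBS CCl4 livers. Usp18 had 29.7, 24.6, 19.9 and 17.2 CPM in KO T3 CCl4 and 29.1, 18.3, 20.4 and 19.8 in KO PBS CCl4 livers, and 17.6, 22.9, 17.7 and 14.5 CPM in WT T3 CCl4 and 43.9, 14.3, 34.3 and 18.3 in WT PBS CCl4 livers. The genotypes and hormone groups of Usp18 overlapped, and it was called neither in KO (0.06) nor in WT livers (-0.61). Ifi27l2a had 11.8, 14.4, 12.2 and 7.39 CPM in KO T3 CCl4 and 9.42, 8.81, 8.12 and 8.81 in KO PBS CCl4 livers, and 9.04, 10.6, 9.76 and 10.7 CPM in WT T3 CCl4 and 10.9, 7.09, 7.65 and 6.18 in WT PBS CCl4 livers. Xaf1 had 19.9, 17.4, 17.6 and 14.9 CPM in KO T3 CCl4 and 12.6, 9.34, 12.5 and 9.62 in KO PBS CCl4 livers, and 10.2, 11.1, 10.4 and 13.1 CPM in WT T3 CCl4 and 21.1, 11.2, 19.8 and 8.604 in WT PBS CCl4 livers. Mx1 had 2.995, 3.86, 4.29 and 2.91 CPM in KO T3 CCl4 and 5.09, 3.61, 2.47 and 3.12 in KO PBS CCl4 livers, and 2.702, 3.49, 3.83 and 3.38 CPM in WT T3 CCl4 and 6.37, 7.05, 9.11 and 2.54 in WT PBS CCl4 livers, where 1 PBS liver lay below all T3 livers. For Ifi27l2a no T3 effect was called with CCl4, at 0.39 in KO and 0.33 in WT livers, and for Xaf1 only the genotype difference in that effect was.

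The genes upstream of the 35 were listed separately. The 7 interferon genes Ifna2, Ifna4, Ifnb1, Ifnk, Ifng, Ifnl2 and Ifnl3 gave 43 counts in all over the 32 libraries, of which Ifng gave 22 in 15 libraries; none passed the filter on low counts, so group differences in the ligands were not tested. Of the 6 receptor genes, T3 lowered 4 and raised 1 in injured WT livers and changed 0 by the test in injured KO livers, that is 83.3% in WT beside 41.7% of all genes, and 0% in KO beside 2.54%. Ifngr1, the binding chain of the interferon gamma receptor, was lowest in WT on T3, with 62.1, 53.8, 71.4 and 65.8 CPM in KO T3 CCl4 and 50.4, 56.1, 42.01 and 35.1 in KO PBS CCl4 livers, and 32.4, 31.5, 33.9 and 32.5 CPM in WT T3 CCl4 and 69.8, 101, 74.6 and 59.9 in WT PBS CCl4 livers. Its T3 effect was 0.46 ± 0.15 (adjusted p = 0.093) in KO and -1.23 ± 0.15 (adjusted p = 3.25e-07) in WT livers, with an interaction of 1.69 ± 0.21 (adjusted p = 2.19e-06). Ifnar1, a chain of the type I receptor, had 0.27 in KO and -0.42 in WT livers, and an interaction of 0.69 ± 0.14 (adjusted p = 0.000846); Ifnar2, the other chain, had 0.42 in KO and rose by 0.41 in WT livers.

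Of 14 transducers and regulators, T3 raised 1 in injured KO livers and raised 3 and lowered 3 in injured WT livers. These are 7.14% in KO beside 2.54% of all genes, and 42.9% in WT beside 41.7%. Irf1, an early target of interferon gamma, had 0.41 ± 0.18 (adjusted p = 0.266) in KO and 1.18 ± 0.19 (adjusted p = 1.16e-05) in WT livers. Socs3, a feedback inhibitor of cytokine receptors, had 0.82 in KO livers and fell by 1.28 ± 0.32 in WT livers (adjusted p = 0.00216), with an interaction of 2.10 ± 0.45 (adjusted p = 0.00125). Of 14 sensing genes tested, T3 raised 2 in KO and 4 in WT livers and lowered none in either, which is 14.3% in KO and 28.6% in WT beside the same 2.54% and 41.7%. Mavs, the adaptor of RIG-I and MDA5, had 0.06 in KO livers and rose by 1.19 ± 0.13 in WT livers (adjusted p = 5.03e-08).

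A second list of 64 interferon-stimulated genes outside the 35 held 62 that were tested. On CCl4, T3 raised 7 and lowered 0 of them in KO livers, and raised 12 and lowered 4 in WT livers, with medians of 0.42 and 0.08. These are 11.3% in KO beside 2.54% of all genes, and 25.8% in WT, under the 41.7% of all genes. The interaction was called above 0 for 9 and below 0 for 2, 17.7% beside 22.7% of all genes. CCl4 on PBS raised 23 and lowered 1 in KO livers, and raised 36 and lowered 3 in WT livers, 38.7% in KO beside 31.1% of all genes and 62.9% in WT beside 46.2%. This list was written with results for the 35 genes known, but its genes were not used to choose them. The smallest adjusted p values of the interaction were those of Ifitm2 (1.73 ± 0.26, adjusted p = 2.51e-05), whose protein blocks virus entry, Isg20 (1.42 ± 0.29, adjusted p = 0.00083), an exonuclease, Nlrc5 (1.39 ± 0.30, adjusted p = 0.00115), which activates MHC class I genes, and Cxcl10 (2.54 ± 0.60, adjusted p = 0.00306), a chemokine that attracts T cells. Ifitm2 was raised by T3 in KO livers (1.30) and had -0.44 in WT livers, while Cxcl10 had 1.13 in KO livers and was lowered in WT livers (-1.41). Of 15 genes known mainly as interferon gamma targets, T3 on CCl4 raised 5 and lowered 0 in KO livers and raised 4 and lowered 1 in WT livers, 33.3% in each, beside 2.54% of all genes in KO and 41.7% in WT. Cxcl9 was among those raised in KO (1.66), and Gbp6 was the one lowered in WT (-0.82).

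Markers of liver cell types moved with the same treatments. Their counts of calls for T3 on CCl4 stand beside 2.54% of all genes called in KO and 41.7% in WT, and those for CCl4 on PBS beside 31.1% in KO and 46.2% in WT. The summed level of 11 Kupffer cell markers was 631 to 951 CPM in KO T3 CCl4 and 267 to 553 in KO PBS CCl4 livers, and 881 to 1346 CPM in WT T3 CCl4 and 277 to 535 in WT PBS CCl4 livers. In oil it was 834 to 1244 CPM in KO T3 and 184 to 260 in KO PBS livers, and 1089.8 to 1767 CPM in WT T3 and 156 to 325 in WT PBS livers. T3 on CCl4 raised 3 of the 11 in KO and 11 of 11 in WT livers, among them Clec4f (1.28 in KO and 2.34 in WT). The Kupffer cell sum was thus higher on T3 in all 4 pairs of groups, and its part in the levels of the 35 genes was not tested.

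Monocyte markers, 8 genes, rose with CCl4 on PBS, 7 called in KO and 8 in WT livers. Their sum was 39.9 to 72.9 CPM in KO PBS CCl4 and 5.80 to 8.53 in KO PBS oil livers, and 44.1 to 72.7 CPM in WT PBS CCl4 and 6.06 to 11.5 in WT PBS oil livers. In oil the sum was also higher on T3, at 18.9 to 25.6 CPM in KO T3 oil and 20.97 to 52.3 in WT T3 oil livers, as the 35 genes were. On CCl4 it was 32.3 to 55.4 CPM in KO T3 and 26.9 to 50.1 in WT T3 livers, overlapping PBS in each genotype. The median sum there was lower on T3, 49.02 against 60.7 CPM in KO and 38.3 against 57.7 in WT livers. T3 on CCl4 raised 1 and lowered 0 of the 8 in KO livers, and raised 1 and lowered 2 in WT livers. The 5 neutrophil markers summed to 32.6 to 59.9 CPM in KO T3 CCl4 and 18.01 to 30.9 in KO PBS CCl4 livers, and to 17.2 to 23.4 CPM in WT T3 CCl4 and 24.4 to 281 in WT PBS CCl4 livers. T3 lowered 3 of the 4 neutrophil genes tested in WT livers and changed 0 by the test in KO livers. The interaction was called above 0 for 3, where 10.3% of all genes were called above 0 and 22.7% in either direction. Ly6g, the defining neutrophil gene, stayed under 1 CPM in every library. The 6 markers of plasmacytoid dendritic cells, which make much type I interferon, summed to 145 to 188 CPM in KO T3 CCl4 and 50.6 to 405 in KO PBS CCl4 livers, and to 17 to 58.7 CPM in WT T3 CCl4 and 57.8 to 358 in WT PBS CCl4 livers. In oil the sum was 8.26 to 17.7 CPM in KO T3 and 2.33 to 4.36 in KO PBS livers, and 4.79 to 9.35 CPM in WT T3 and 2.96 to 4.86 in WT PBS livers. Of the 4 that were tested, T3 on CCl4 raised 1 in KO and lowered 2 in WT livers, and CCl4 on PBS raised 2 in KO and 1 in WT livers. Most of the sum in injured livers came from Ly6d, singled out after its values were seen, with 156, 162, 186 and 143 CPM in KO T3 CCl4 and 59.5, 47.3, 379.6 and 144 in KO PBS CCl4 livers, and 27.9, 52.05, 56.05 and 15.6 CPM in WT T3 CCl4 and 97.8, 341, 157 and 53.8 in WT PBS CCl4 livers. Siglech, the defining gene of the list, lay at 0.518 to 1.01 CPM in KO T3 CCl4 and 0.226 to 0.286 in KO PBS CCl4 livers, and at 0.164 to 0.363 CPM in WT T3 CCl4 and 0.281 to 0.485 in WT PBS CCl4 livers. The summed level of 10 lymphocyte markers was 8.10 to 10.96 CPM in KO T3 CCl4 and 3.89 to 8.42 in KO PBS CCl4 livers, and 12.6 to 16.7 CPM in WT T3 CCl4 and 6.37 to 10.1 in WT PBS CCl4 livers. Of the other lists, T3 on CCl4 raised 1 of 7 hepatocyte markers in KO and 4 in WT livers, lowered 0 of 4 cholangiocyte markers in KO and 4 of 4 in WT livers, and lowered 0 of 5 sinusoidal endothelial and 0 of 5 stellate cell markers in KO and 1 and 2 in WT livers. CCl4 on PBS lowered 3 hepatocyte markers in KO and 6 in WT livers. The part of these cell types in the levels of the 35 genes was not tested.

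**Figure D5:**
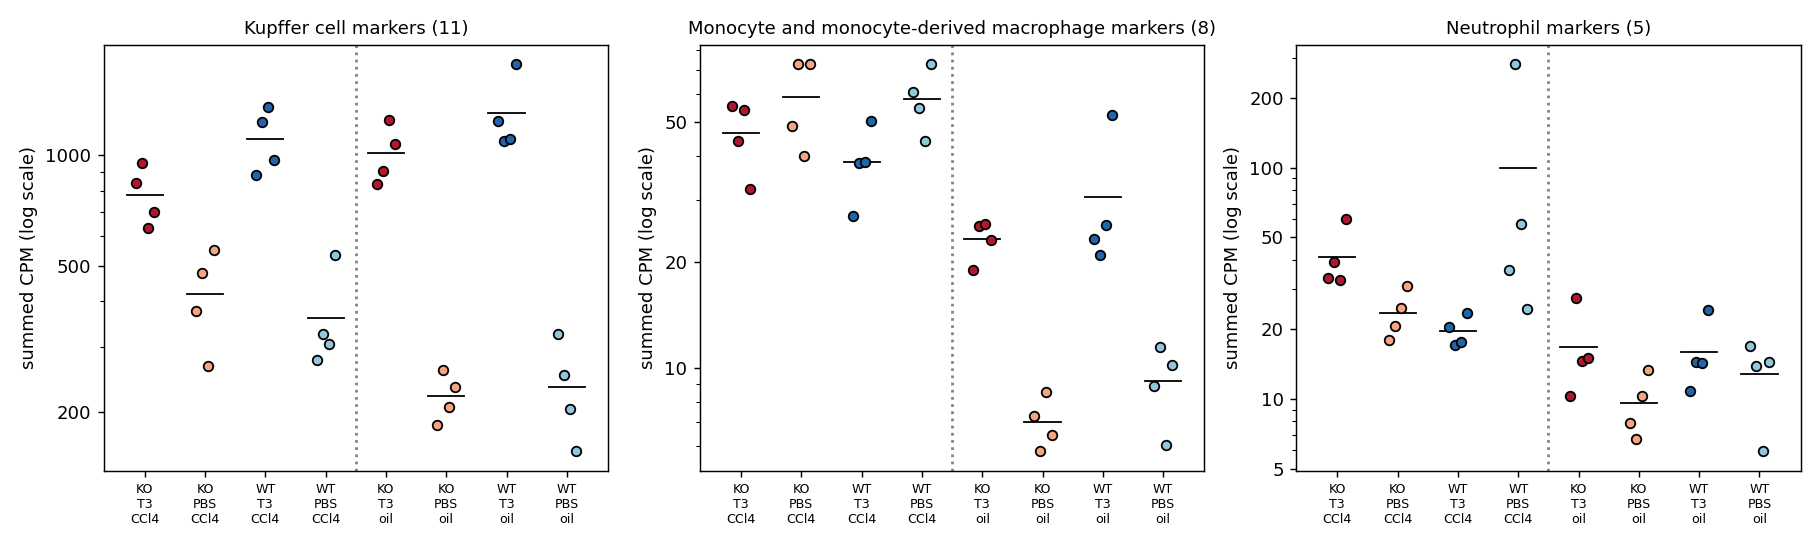
Summed CPM (log axis) of 11 Kupffer cell, 8 monocyte and 5 neutrophil markers in each liver (points) with the mean of 4 (lines), for the 8 groups, CCl4 left of the dotted line. Kupffer cell markers were higher on T3 in both genotypes with and without injury, monocyte markers were higher with CCl4 on PBS and with T3 in oil, and the neutrophil sum in WT PBS CCl4 ran from 24.4 to 281. Monocyte sums of T3 and PBS livers overlapped on CCl4 in each genotype.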

How the data were processed

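Liver RNA was sequenced from 32 mice in 8 groups of 4. The values deposited by the authors are raw, unnormalized counts, whole numbers for 52636 genes. The submitters' processing notes list GRCm38, STAR 2.7.9a, cutadapt, Trim Galore and FastQC 0.11.5 but give them no role. How reads were counted, on which strand and with which annotation is not given, so overlapping and antisense genes are uncertain. Per the labels' protocols 2 library kits were used, with no assignment to libraries, so kit and group cannot be told apart.

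Gene IDs were matched to symbols, 52489 of 52636; the other 147 held at most 0.0056% of a library's counts. Genes passed edgeR's filterByExpr (minimum count 10, minimum total 15), which left 15599 and all 35 interferon-stimulated genes. One fit with a mean per group used TMM factors and edgeR 4.0.16's quasi-likelihood F test (R 4.3.3), with Benjamini-Hochberg adjustment over all genes tested; DESeq2 1.42.0 was an alternative. The steps were tested on simulated data. Totals of 16985162 to 26118055 counts set the precision. Each library has its own animal number in the labels, so replicates are separate mice. Named genes were the 35, with values per liver for the main effectors, for the 3 with the smallest adjusted p per comparison and for exceptions; from other lists, genes of the pathway and up to 4 called genes. The 35 genes and all lists were chosen with earlier results of these data known. Promoters came from RefSeq; their start bases were found in the annotated transcript for 18 of 26 genes. Alternatives were RLE factors, total counts, no filter, a replicate block, a fit of only the compared groups, DESeq2 and leaving out libraries. One gene of the pathway lists is not reported here.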

Additional observations from a re-analysis of the deposited data

Results flagged for a closer look

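In 160 checks of a gene in a group of 4 livers, 11 had 1 liver far from the other 3, by the 95% limit of Dixon's ratio; chance flags about 1 group in 20. High livers were KO T3 oil replicate 3 for Isg15 (44.8 CPM) and Ifit3 (52.5 CPM), KO PBS CCl4 replicate 1 for Isg15 (33.7 CPM) and Ifit3 (16.1 CPM), WT T3 oil replicate 4 for Oasl2 (48.3 CPM) and Mx1 (12.9 CPM), and WT PBS oil replicate 1 for Mx1 (2.64 CPM). Low livers were KO T3 oil replicate 2 for Rsad2 (16.6 CPM), WT PBS CCl4 replicate 4 for Oasl2 (9.98 CPM), WT PBS oil replicate 2 for Stat2 (46.9 CPM) and WT PBS oil replicate 3 for Ifi44 (1.77 CPM).

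The T3 effect on injured liver differed between KO and WT mice, by edgeR's test of the interaction, for Zbp1 (2.10 on the log2 scale, KO minus WT), Rsad2 (2.02), Isg15 (1.87), Ifi44 (1.82), Mx2 (1.51), Oasl1 (1.44), Ifit1 (1.32), Xaf1 (1.10), Trim30a (0.73), Rtp4 (0.72) and Gbp3 (-1.58). The CCl4 effect on T3 differed for Eif2ak2 (1.16), 1 of 35 genes, where 13.5% of all genes were called. That comparison holds the T3 oil libraries, which took part in the choice of genes, so it is no independent measure.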

How the results depend on the processing

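Counts of called genes among the 35 moved by more than 1.5 times as follows. T3 on CCl4 gave 7 in KO and 15 in WT livers; a fit of only the compared groups gave 3 in KO and 7 in WT, total counts alone gave 2 in KO, and DESeq2, and likewise leaving out the 2 livers farthest from their group means (WT PBS CCl4 replicate 2 and KO PBS CCl4 replicate 3, chosen after seeing the data), gave 11 in KO. CCl4 on T3 in KO gave 13, but 7 with total counts alone and 8 with no filter. KO against WT gave 0 on PBS oil and 1 with DESeq2, 6 on T3 oil and 10 with only the compared groups, 2 on PBS CCl4 and 0 with only the compared groups or 1 without the 2 farthest livers, and 9 on T3 CCl4 and 18 with only the compared groups. The genotype difference in the T3 effect gave 11, 17 with total counts alone and 6 with only the compared groups, and that in the CCl4 effect on T3 gave 1, with 12, 17 and 3 under total counts, only the compared groups and DESeq2. With 1 liver left out, ranges were 3 to 6 for T3 on CCl4 in KO, 7 to 12 for CCl4 on T3 in KO, 0 to 11 for KO against WT on PBS CCl4 and 4 to 9 on T3 CCl4, 8 to 18 for the genotype difference in the T3 effect and 1 to 2 for that in the CCl4 effect on T3. The causes were not tested, and the share of all genes called was not counted under these settings. Replicate numbers share nothing in the labels: same-numbered livers had a mean correlation of deviations of 0.005 over 112 pairs and others -0.001 over 336, and the replicate block gave 10 for the genotype difference in the T3 effect and 6 in KO and 15 in WT for T3 on CCl4. With total counts alone, no called value of the 35 genes changed sign. Under the other alternatives, signs were compared only for called values of Isg15, Rsad2, Ifi44, Gbp3, Zbp1, Mx2, Stat2, Eif2ak2 and Ifit3, and none changed. Counting depth limits Oas3 most, with 2 counts in its lowest liver.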
